A study of Mus musculus with 15 samples.

Results

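The 7 genes Scn4b, Hcn2, Hcn4, Cacna2d1, Cacnb2, Gja1 and Gja5 encode subunits of depolarising ion channels, accessory subunits of calcium channels and connexins of cardiac conduction. They were taken by name from the 15258 genes of the deposited expression files, and each of them had a row there. Expression was measured by BRB-seq, which barcodes each RNA sample and counts reads at the 3′ ends of transcripts, in 15 left ventricular libraries from male C57BL/6NRj mice, 5 per group. TAC NRG mice underwent transverse aortic constriction (TAC), in which the aorta is narrowed so that the left ventricle pumps against a higher pressure, and carried a minipump with NRG1, the growth factor neuregulin-1. TAC saline mice had the same constriction and a minipump with saline. Sham saline mice had sham surgery and a saline pump. The libraries include no sham group given NRG1, so NRG1 was compared with saline only under constriction. The labels give no age, dose or duration, no allele beyond the strain, and no statement on whether 1 mouse stands behind each library. The p-values therefore measure the spread between these samples, which may be technical.

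In heart muscle, voltage-gated sodium channels open first and carry the upstroke of the action potential, with small beta subunits such as SCN4B tuning their gating. HCN2 and HCN4 form the hyperpolarisation-activated pacemaker channels, which are most prominent in the sinus node and conduction system and low in working ventricle. CACNA2D1 and CACNB2 bring the L-type calcium channel pore CACNA1C to the cell surface and set its gating. GJA1 (connexin 43) forms the gap junctions between ventricular muscle cells, and GJA5 (connexin 40) those of atria, Purkinje fibres and arterial endothelium.

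The libraries held 2.02 to 5.62 M reads. Levels in CPM are 2 raised to the deposited log2 value and then divided by 1000, and so include the scaling per library and the 0.5 read added by the authors. Two-sided limma tests covered 11018 genes, and "rose" and "fell" are used for adjusted p-values under 0.05. The shallowest libraries, TAC NRG 4 and 5 (2.02 and 2.13 M reads), also stood apart from the other libraries on the second principal component. The tissue label fitted the ventricular markers, whose 5 genes summed to 22564 to 33862 CPM in TAC NRG, 24432 to 31444 CPM in TAC saline and 29152 to 32822 CPM in sham saline. The 5 atrial markers analysed summed to 40.8 to 58.3 CPM in TAC NRG, 40.9 to 61.1 CPM in TAC saline and 66.8 to 73.5 CPM in sham saline. Over all libraries, Myl7 had 42 reads, Myl4 153, Dkk3 189, Stard10 1096 and Kcnj3 1549, while Sln and Bmp10 were not analysed here. Kcnj3 and Stard10 fell and Dkk3 rose in both TAC groups relative to sham saline. With 189 reads in all, Dkk3 may have been tested only through its higher level in the TAC libraries. Its calls were kept in the 26 alternatives that held the gene. The Stard10 calls were kept in 17 of 27 alternatives for TAC NRG and 18 of 27 for TAC saline. Among single libraries, the Stard10 call was lost without TAC NRG 2, 3 or 5, TAC saline 2, or sham 1, 2 or 4 in TAC NRG, and without TAC saline 1 or 5, or sham 1, 2 or 4 in TAC saline. Of the 7 Purkinje and conduction markers analysed, Cntn2 had 23 reads and was at 0 in 4 libraries, Ntm had 55, and the other 5, from Cacna1g with 249 to Irx3 with 1172 reads, were present in every library. All libraries carry the same batch number in the labels.

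With TAC saline set against sham saline, 0 of the 7 genes passed the limma test (adjusted p under 0.05), against 10.7% of all genes tested (6.47% higher and 4.24% lower). All 7 fold changes lay below 0, with a median of -0.36 on the log2 scale against -0.01 over all genes, although those of Gja1 and Cacna2d1 turned above 0 when scaled by total reads alone and with voom weights, and that of Gja1 also with non-mitochondrial and with thinned reads. The median of all genes was itself 0.10 with total reads, 0.11 with voom weights and 0.035 with non-mitochondrial reads, and both genes stayed below it in each of these. With thinned reads the median was -0.0084, and Gja1 (0.013) lay above it. At an unadjusted p under 0.05, 4 of the 7 passed, against 24.2% of all genes, and limma with voom weights on recovered reads called 0. With TAC NRG set against TAC saline, limma again called 0 of the 7, against 1.3% of all genes (0.672% higher and 0.626% lower), and voom weights called 0. There 2 of the 7, Gja1 and Gja5, passed at an unadjusted p under 0.05, against 15.3% of all genes. With TAC NRG set against sham saline, 2 of the 7 passed, against 16.1% of all genes tested. Hcn2 fell and Gja1 rose, and 7.39% of all genes fell and 8.74% rose there. At an unadjusted p under 0.05, 6 of the 7 passed, against 28.9% of all genes. The comparisons share libraries and are not independent of each other. These shares of all genes are also the background for the counts of the gene and marker lists below.

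**Figure D1:**
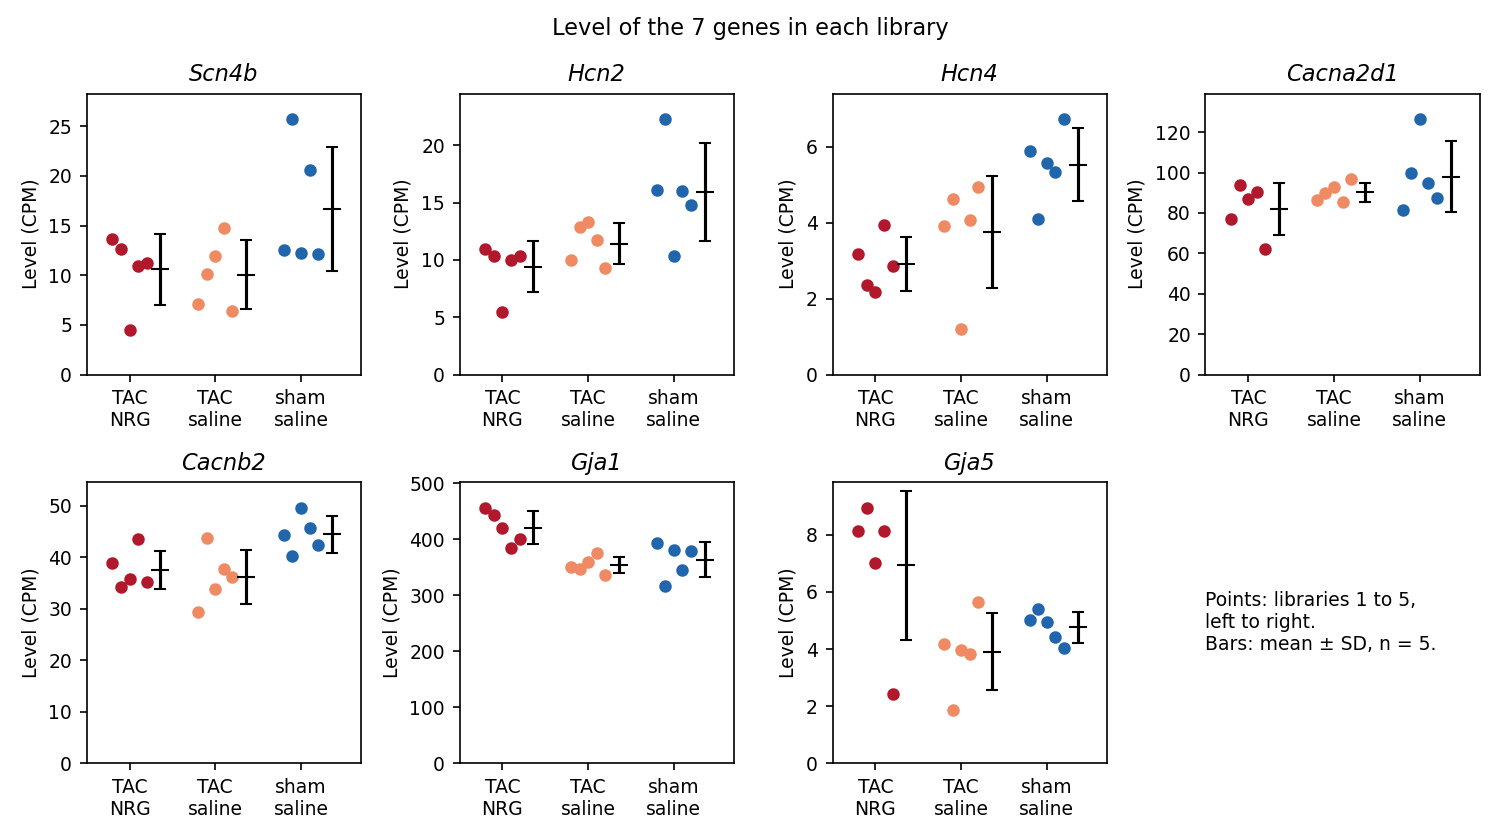
Level of each of the 7 genes in CPM (linear axes from 0) in TAC NRG, TAC saline and sham saline, 1 point per library in the order 1 to 5, with the mean and SD of 5 beside them. Hcn2 averaged 9.42 CPM in TAC NRG, 11.4 CPM in TAC saline and 15.9 CPM in sham saline, while for Gja1 the lowest TAC NRG library (384 CPM) lay above the highest TAC saline library (375 CPM).

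Hcn2, the gene of a fast pacemaker channel, had 10.9, 10.4, 5.48, 9.98 and 10.4 CPM in TAC NRG libraries 1 to 5. It had 9.98, 12.9, 13.3, 11.7 and 9.26 CPM in TAC saline libraries 1 to 5, and 16.1, 22.3, 10.4, 16.0 and 14.8 CPM in sham saline libraries 1 to 5. Of the 5 sham libraries, 4 lay above every TAC NRG and TAC saline library, and sham 3 lay among them. Hcn2 fell in TAC NRG relative to sham saline by 0.76 ± 0.20 on the log2 scale (SE, limma adjusted p = 0.0116), to 0.59 of the sham level with a 95% interval of 0.44 to 0.79. The exact two-sided permutation test of 5 against 5 libraries gave p = 0.024, and 0.083 when adjusted over the 21 member comparisons. The call was kept in all 27 alternatives, with log2 fold changes of -0.90 to -0.57 and adjusted p-values of 0.0040 to 0.045. Without TAC NRG 3, the lowest library, the fold change was -0.57 (adjusted p = 0.0405), and without TAC NRG 4 and 5 it was -0.86 (adjusted p = 0.0154). In this bulk tissue, fewer cells of a type and less RNA per cell cannot be told apart. Of the 12 cardiomyocyte markers, 5 fell (Myh6, Tnni3, Ryr2, Pln and Atp2a2) and 2 rose (Actc1 and Actn2) in the same comparison, with a list median of -0.21 on the log2 scale against -0.01 over all genes. The calls for Pln and Tnni3 were lost with the replicate block and on leaving out any one of TAC NRG 1, TAC NRG 3, sham 1, sham 3 or sham 5, and that for Tnni3 also without sham 2 or with no filter on low values. The 12 summed to 74946 to 92035 CPM in TAC NRG, 75569 to 90845 CPM in TAC saline and 84714 to 91428 CPM in sham saline, and their part in the Hcn2 levels was not tested. TAC saline stood between the other groups, with a log2 difference of -0.45 ± 0.20 from sham saline (limma adjusted p = 0.167) and of -0.31 ± 0.20 for TAC NRG over TAC saline (adjusted p = 0.490). Neither neighbouring pair differed past the threshold.

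The share of reads from mitochondrially encoded genes ran in the same order as Hcn2. It was 25.8 ± 2.35% in TAC NRG, 27.7 ± 1.62% in TAC saline and 31.1 ± 0.47% in sham saline (SD, n = 5 each). Over the 15 libraries its Pearson r with log2 Hcn2 was 0.75, and 0.44 with group means removed, as a description. Scaled to non-mitochondrial reads, the Hcn2 difference between TAC NRG and sham saline was -0.77 on the log2 scale (limma adjusted p = 0.0093).

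Hcn4, the main pacemaker channel gene of the sinus node, rested on 3 to 26 reads per library. It had 3.18, 2.35, 2.17, 3.95 and 2.87 CPM in TAC NRG libraries 1 to 5, and 3.90, 4.62, 1.21, 4.08 and 4.93 CPM in TAC saline libraries 1 to 5. The sham saline libraries 1 to 5 had 5.89, 4.09, 5.58, 5.34 and 6.73 CPM. All 5 TAC NRG libraries lay below all 5 sham libraries, a pattern that 5.45% of all genes tested showed in that direction. The difference of -0.94 ± 0.33 on the log2 scale did not pass (limma adjusted p = 0.0513). The exact permutation p was 0.0079, the smallest that 5 against 5 libraries allow, and 0.083 when adjusted over the 21 comparisons. It passed in 7 of 26 alternatives, among them without TAC NRG 4, without TAC saline 3 and without sham saline 2 (adjusted p = 0.0494 in the last). TAC saline over sham saline gave -0.69 ± 0.33 (adjusted p = 0.197), and TAC NRG over TAC saline gave -0.25 ± 0.33 (adjusted p = 0.764). Of the pooled spread within groups, a log2 SD of 0.55, read counting alone would give 0.45. The 7 Purkinje and conduction markers analysed, with the untested Cntn2 and Ntm among them, summed to 40.3 to 50.9 CPM in TAC NRG, 39.2 to 65.1 CPM in TAC saline and 40.8 to 64.4 CPM in sham saline. With limma, 0 of the 5 tested markers passed in any comparison.

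**Figure D2:**
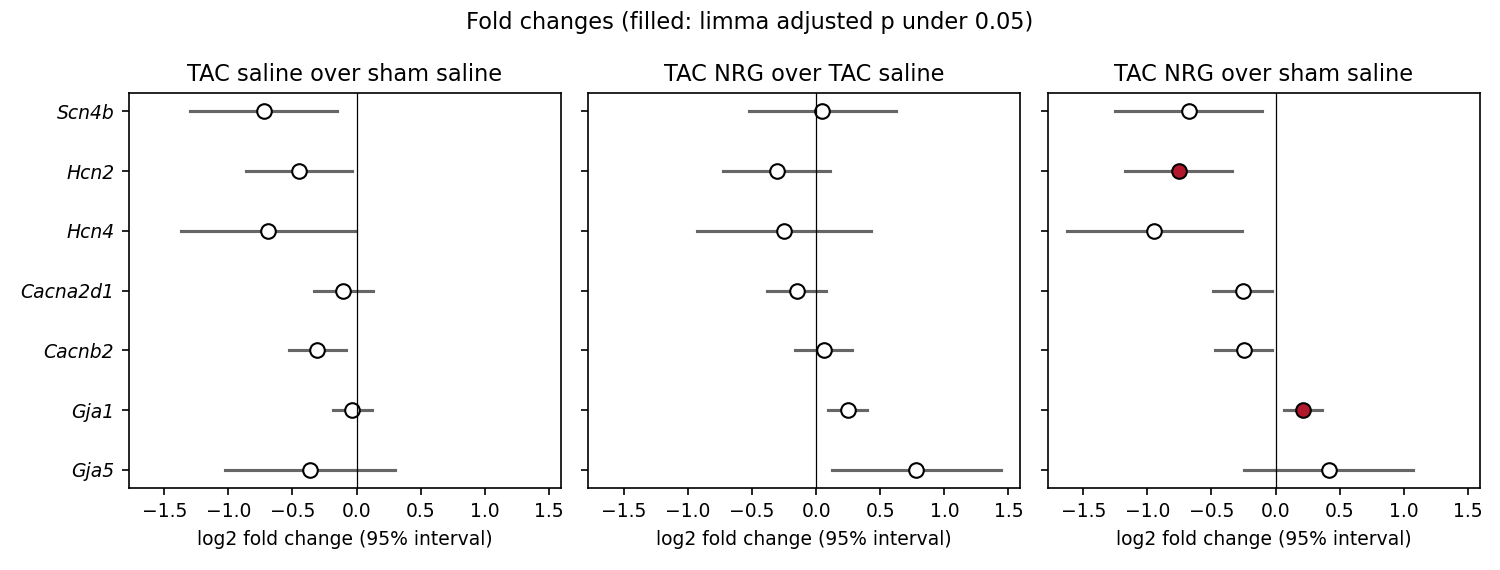
Log2 fold changes with 95% intervals from limma for the 7 genes, for TAC saline over sham saline, TAC NRG over TAC saline and TAC NRG over sham saline; filled points have an adjusted p under 0.05. The filled points are Hcn2 at -0.76 and Gja1 at 0.21, both for TAC NRG over sham saline.

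The stretches just upstream of 3 of these genes are shown because Hcn2 varied between libraries together with Scn4b (r = 0.86) and less so with the related Hcn4 (r = 0.35). They are the 250 bases before the RefSeq gene start on GRCm38.p6, a different build from the GRCm39 of the expression files, all on the plus strand: Hcn2 at chr10:79716384-79716633, Scn4b at chr9:45138374-45138623 and Hcn4 at chr9:58822699-58822948. Capitals mark matches to the motifs searched, on either strand.
Hcn2: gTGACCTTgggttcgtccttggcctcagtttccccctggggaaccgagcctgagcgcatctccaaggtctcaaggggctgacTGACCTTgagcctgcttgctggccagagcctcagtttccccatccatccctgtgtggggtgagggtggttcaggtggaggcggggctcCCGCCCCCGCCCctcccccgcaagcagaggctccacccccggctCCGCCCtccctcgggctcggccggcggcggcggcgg
Scn4b: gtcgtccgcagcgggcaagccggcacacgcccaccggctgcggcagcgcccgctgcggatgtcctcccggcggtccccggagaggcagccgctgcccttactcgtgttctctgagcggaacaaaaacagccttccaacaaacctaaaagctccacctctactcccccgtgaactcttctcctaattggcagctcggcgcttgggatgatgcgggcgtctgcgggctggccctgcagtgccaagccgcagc
Hcn4: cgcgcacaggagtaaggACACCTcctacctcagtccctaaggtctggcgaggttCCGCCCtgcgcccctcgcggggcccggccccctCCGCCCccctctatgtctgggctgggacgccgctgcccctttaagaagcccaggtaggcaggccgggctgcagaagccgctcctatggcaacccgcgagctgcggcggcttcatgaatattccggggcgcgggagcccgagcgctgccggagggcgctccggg
The motifs were chosen after the sequences and the expression patterns had been seen, and no 2 of them matched overlapping bases in these 3 windows. AAGGTCA, the extended half-site of oestrogen-related and other nuclear receptors, occurred 2 times in the Hcn2 window, starting 249 and 168 bases before the gene start and read on the minus strand. It occurred in no window of the other 6 genes, in 4.08% of 32851 RefSeq windows of this length, and 2 or more times in 0.128% of them. AGGTGT, a T-box half-site, occurred once among the members, in Hcn4, and in 11.8% of all windows. GGGCGG, the GC box of Sp factors, occurred in 5 of the 7 genes, 3 times in Hcn2 and 2 times in Hcn4, and in 32.7% of all windows. AAGTG, the core of the NKX2-5 site, occurred in windows of Gja5 and Cacnb2 and in 40.7% of all. CTANNNNTAG, a form of the MEF2 site, was in none of the 7 and in 3.2% of all. The Scn4b and Gja1 windows held none of the 5 motifs.

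Scn4b, a beta subunit of the cardiac sodium channel, had 13.7, 12.6, 4.46, 10.9 and 11.3 CPM in TAC NRG libraries 1 to 5. It had 7.08, 10.1, 11.9, 14.7 and 6.37 CPM in TAC saline libraries 1 to 5, and 12.6, 25.7, 12.3, 20.6 and 12.1 CPM in sham saline libraries 1 to 5. Sham 2 and 4 lay above all other libraries, and the other 3 sham libraries overlapped both TAC groups. TAC saline over sham saline gave -0.72 ± 0.28 on the log2 scale (limma adjusted p = 0.0990), TAC NRG over sham saline gave -0.68 ± 0.28 (adjusted p = 0.10), and TAC NRG over TAC saline gave 0.05 ± 0.28 (adjusted p = 0.954). The 95% interval of the last, 0.69 to 1.54 as a fold, leaves room for changes in either direction. The difference between TAC saline and sham saline passed in 2 of 27 alternatives, with only those groups in the fit and without TAC NRG 3, which enters it only through the shared spread (adjusted p = 0.0346). The spread of Scn4b within groups was a log2 SD of 0.56, against 0.24 from read counting.

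Cacnb2, the beta subunit that escorts the L-type pore to the membrane, had 38.8, 34.2, 35.8, 43.4 and 35.1 CPM in TAC NRG libraries 1 to 5. It had 29.4, 43.6, 33.8, 37.7 and 36.2 CPM in TAC saline libraries 1 to 5, and 44.4, 40.2, 49.6, 45.6 and 42.3 CPM in sham saline libraries 1 to 5. All but 1 library of each TAC group lay below the lowest sham library. TAC saline over sham saline gave -0.31 ± 0.11 on the log2 scale (limma adjusted p = 0.0700) and TAC NRG over sham saline gave -0.25 ± 0.11 (adjusted p = 0.125). TAC NRG over TAC saline gave 0.06 ± 0.11 (adjusted p = 0.838), with an interval of 0.89 to 1.22 as a fold. Without TAC saline 2, the highest of its group, the difference between TAC saline and sham saline passed (adjusted p = 0.0279).

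Cacna2d1, the alpha-2/delta subunit, had 77.0, 94.0, 86.7, 90.3 and 62.1 CPM in TAC NRG libraries 1 to 5. It had 86.3, 89.9, 93.0, 85.4 and 96.8 CPM in TAC saline libraries 1 to 5, and 81.5, 99.8, 126, 94.7 and 87.5 CPM in sham saline libraries 1 to 5. The 3 groups overlapped throughout. Its fold changes on the log2 scale were -0.10 ± 0.11 for TAC saline over sham saline, -0.15 ± 0.11 for TAC NRG over TAC saline and -0.26 ± 0.11 for TAC NRG over sham saline (limma adjusted p = 0.638, 0.554 and 0.127).

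The pore gene Cacna1c averaged 108 ± 9.07 CPM in TAC NRG, 96.5 ± 13.4 CPM in TAC saline and 117 ± 10.7 CPM in sham saline (SD, n = 5 each). Its difference of -0.28 ± 0.09 on the log2 scale between TAC saline and sham saline did not pass (limma adjusted p = 0.0558), although 4 of 27 alternatives called it, those with a robust spread and without TAC NRG 3, TAC saline 2, or TAC NRG 4 and 5. Rrad, which encodes a small GTP-binding inhibitor of the same channel, rose in TAC NRG relative to sham saline by 0.63 ± 0.13 (adjusted p = 0.0012), and in TAC saline relative to sham saline by 0.41 ± 0.13 (adjusted p = 0.0379). It averaged 387 ± 22.5 CPM in TAC NRG, 335 ± 46.8 CPM in TAC saline and 258 ± 73.6 CPM in sham saline, where library 5 alone reached 377 CPM. The TAC saline call was lost in 7 of 27 alternatives, those with a robust spread and without TAC saline 1, TAC saline 5, sham 1, sham 2, sham 3 or sham 4. Cacnb1, the beta subunit best known from skeletal muscle, rose in TAC NRG relative to sham saline by 0.86 ± 0.28 (adjusted p = 0.0399). That call was kept in 16 of 27 alternatives and lost without any of TAC NRG 2 to 5 or sham 2 to 4. TAC saline over sham saline gave 0.84 ± 0.28 (adjusted p = 0.0566), and TAC NRG over TAC saline gave 0.01 ± 0.28 (adjusted p = 0.987). Cacnb1 rested on 246 reads over the 15 libraries, with 1.75 to 3.74 CPM in sham saline. Of the 5 tested accessory subunits and inhibitors of the RGK family, 1 rose and 0 fell in TAC saline over sham saline. In TAC NRG over TAC saline 0 passed. There 1, the RGK inhibitor gene Gem on 216 reads in all, reached an unadjusted p under 0.05. Gem lay below 0, at -0.93 ± 0.33 (limma adjusted p = 0.167), against 0.21 ± 0.13 for Rrad (adjusted p = 0.436). In TAC NRG over sham saline 2 rose and 0 fell. Of the 5 tested calcium channel pores, 0 passed with limma in any comparison, with 2, 0 and 1 at an unadjusted p under 0.05 in the same order of comparisons. Of all genes, 24.2%, 15.3% and 28.9% had such a p.

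Gja1 (connexin 43) had 456, 443, 419, 384 and 400 CPM in TAC NRG libraries 1 to 5. It had 351, 347, 360, 375 and 336 CPM in TAC saline libraries 1 to 5, and 393, 316, 380, 345 and 380 CPM in sham saline libraries 1 to 5. Every TAC NRG library lay above every TAC saline library, as for 1.81% of all genes tested, and 1 sham library lay within the TAC NRG range. Gja1 rose in TAC NRG relative to sham saline by 0.21 ± 0.07 on the log2 scale (limma adjusted p = 0.0484), which is 1.16 times the sham level with a 95% interval of 1.04 to 1.29. That call was close to the threshold: it held in 11 of 27 alternatives, and adjusted p-values ran from 0.0039 to 0.149. It was lost on leaving out any of TAC NRG 1, 2 and 3, TAC saline 1, 2, 4 and 5, or sham 2, 3, 4 and 5. The TAC saline libraries enter this comparison only through the shared spread. Leaving out TAC saline 1, 2, 4 or 5 singly kept the fold change at 0.21 (adjusted p = 0.0503 to 0.0571). A fit with only TAC NRG and sham saline gave 0.21 as well and lost the call (adjusted p = 0.0676). The call was also lost when scaled to non-mitochondrial reads (adjusted p = 0.0668). Without TAC NRG 4 and 5 the fold change was 0.28 (adjusted p = 0.0238). TAC NRG over TAC saline gave 0.25 ± 0.07 and did not pass over all genes (adjusted p = 0.0916), with a fold of 1.19 and an interval of 1.07 to 1.32. The exact permutation p of that difference was 0.0079, the smallest possible, and 0.083 when adjusted over the 21 comparisons. TAC saline over sham saline gave -0.03 ± 0.07 (adjusted p = 0.838), with an interval of 0.88 to 1.09 as a fold. Fibroblasts also carry connexin 43, and 6 of 10 fibroblast markers rose and 1 fell both in TAC NRG and in TAC saline relative to sham saline. The 10 markers summed to 2521 to 3970 CPM in TAC NRG, 2265 to 3492 CPM in TAC saline and 1981 to 2209 CPM in sham saline, and their part in the Gja1 levels was not tested.

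Gja5 (connexin 40), on 5 to 51 reads per library, had 8.15, 8.96, 7.0, 8.13 and 2.43 CPM in TAC NRG libraries 1 to 5. It had 4.19, 1.87, 3.98, 3.83 and 5.65 CPM in TAC saline libraries 1 to 5, and 5.00, 5.41, 4.94, 4.42 and 4.04 CPM in sham saline libraries 1 to 5. The first 4 TAC NRG libraries lay above all libraries of the other groups, and TAC NRG 5 lay near the bottom. TAC NRG over TAC saline gave 0.78 ± 0.32 on the log2 scale (limma adjusted p = 0.245), a fold of 1.72 with an interval of 1.09 to 2.71. Without TAC NRG 5 it was 1.12 (adjusted p = 0.0489). TAC NRG over sham saline gave 0.42 ± 0.32 (adjusted p = 0.424), and TAC saline over sham saline gave -0.36 ± 0.32 (adjusted p = 0.547). The markers of arterial endothelium, a site of connexin 40, summed to 127 to 160 CPM in TAC NRG, 124 to 148 CPM in TAC saline and 126 to 135 CPM in sham saline. With limma, 0 of its 9 tested markers passed in TAC NRG over TAC saline, with 2 at an unadjusted p under 0.05 (Sox17 at 0.55 and Hey1 at 0.61) and a list median of 0.01. In TAC NRG over sham saline 8 of the 9 had fold changes above 0, with a list median of 0.26 against -0.01 over all genes. Sox17 rose there by 0.62 and Dll4 fell by 0.58, the second call being lost with voom weights and without TAC NRG 4 and 5. All 10 general endothelial markers had fold changes below 0 in TAC NRG over TAC saline, with a median of -0.21 (9 of 10 without TAC NRG 4, TAC NRG 5 or both). Cdh5 fell by 0.43 (adjusted p = 0.0157), a call lost without TAC saline 1, TAC saline 5, or TAC NRG 4 and 5. The 10 endothelial markers summed to 603 to 696 CPM in TAC NRG, 707 to 821 CPM in TAC saline and 665 to 765 CPM in sham saline. The part of these markers in the Gja5 levels was not tested.

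Gjc1 (connexin 45), a connexin of the conduction system and the early heart, averaged 30.3 ± 4.23 CPM in TAC NRG, 25.1 ± 4.93 CPM in TAC saline and 17.3 ± 1.94 CPM in sham saline (SD, n = 5 each). It rose in TAC NRG relative to sham saline by 0.81 ± 0.14 on the log2 scale (limma adjusted p = 0.00019), and in TAC saline relative to sham saline by 0.53 ± 0.14 (adjusted p = 0.0139). The second call was lost without TAC saline 4, without TAC saline 5 and with thinned reads. Panx1, a pannexin channel gene, averaged 6.30 ± 1.96 CPM in TAC NRG, 3.35 ± 1.37 CPM in TAC saline and 1.72 ± 0.51 CPM in sham saline, and rose in TAC NRG relative to sham saline by 1.86 ± 0.34 (adjusted p = 0.00047). It rested on 190 reads over the 15 libraries. All sham saline libraries (1.19 to 2.29 CPM) lay under the filter of 2.95 reads per M, so Panx1 was tested only through its higher level in TAC libraries. The call was kept in the 26 alternatives that held the gene, which had no value under the doubled filter. Of 4 tested other connexins and pannexins, 1 rose in TAC saline over sham saline (median 0.32), 0 passed in TAC NRG over TAC saline with limma (2 at an unadjusted p under 0.05, median 0.23), and 2 rose in TAC NRG over sham saline (median 0.55). None of the 4 fell past the threshold in these comparisons. Panx1 is among the 4 and is 1 of the 2 that rose in TAC NRG over sham saline. That count and its median therefore include a gene tested only through its higher level in TAC libraries.

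Gap junctions sit at the intercalated disc, the end-to-end contact of heart muscle cells, and 21 of its other genes were tested. In TAC saline relative to sham saline 5 rose and 0 fell, with a list median of 0.04. The largest changes were those of Xirp2, a Xin-repeat protein of the disc (1.08 ± 0.13 on the log2 scale, limma adjusted p = 1.1e-05), and Nrap, an actin anchor (0.70 ± 0.09, adjusted p = 2.3e-05). In TAC NRG relative to TAC saline 2 rose and 0 fell, with a median of 0.06. Popdc2, which encodes a cAMP-binding membrane protein of muscle, averaged 981 ± 58.0 CPM in TAC NRG, 641 ± 32.5 CPM in TAC saline and 649 ± 47.5 CPM in sham saline, and rose by 0.61 ± 0.07 over TAC saline (adjusted p = 2.0e-05). Des (desmin) rose by 0.37 ± 0.09 over TAC saline (adjusted p = 0.0254), a call lost without TAC NRG 4, TAC NRG 5 or both, without TAC saline 1, 2 or 5, and with only those groups in the fit. In TAC NRG relative to sham saline 9 rose and 0 fell, with a median of 0.31. They included Pkp2 (0.46 ± 0.08, adjusted p = 0.00028) and Jup (0.31 ± 0.08, adjusted p = 0.0130), the desmosomal genes plakophilin-2 and plakoglobin.

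**Figure D3:**
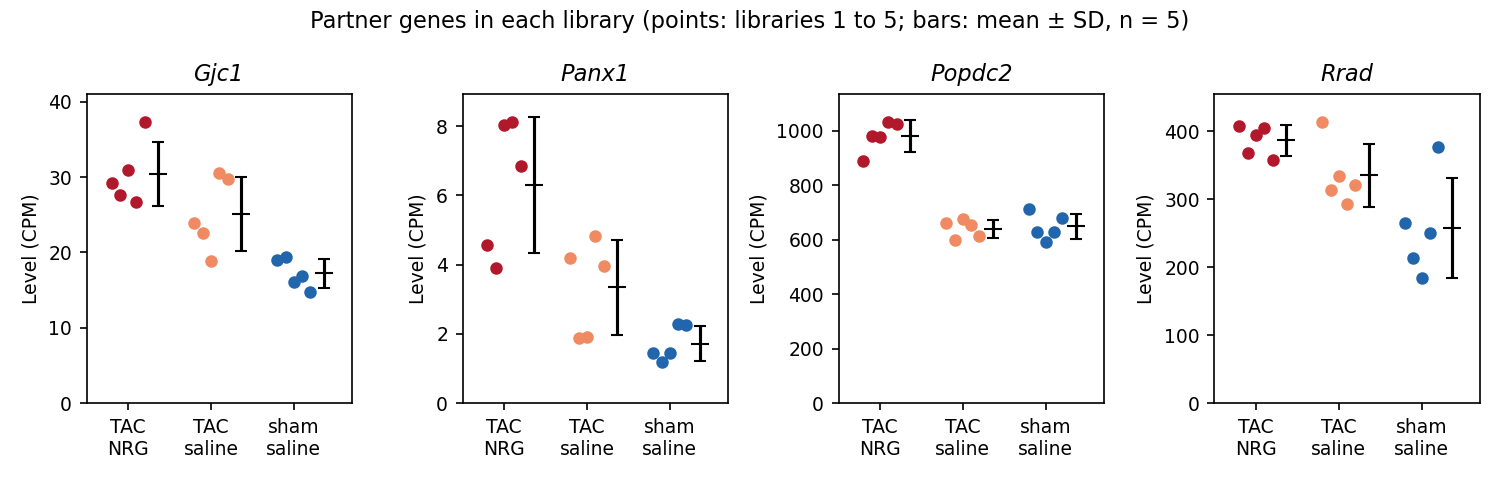
Level in CPM (linear axes from 0) of the connexin gene Gjc1, the pannexin gene Panx1, the intercalated disc gene Popdc2 and the calcium channel inhibitor gene Rrad in each library, with mean and SD of 5. The TAC NRG libraries lie above the sham saline libraries for Gjc1, Panx1 and Popdc2. For Popdc2 they lie also above the TAC saline libraries, as for 1.81% of all genes tested. For Rrad sham saline 5 (377 CPM) lies within the TAC NRG range. The genes were picked from those called in TAC NRG relative to sham saline. The share of all genes with every TAC NRG library above every sham saline library was not counted.

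Of 23 tested transcription factors of conduction and pacemaker tissue, 0 rose and 2 fell in TAC saline relative to sham saline with limma, and 0 rose and 4 fell in TAC NRG relative to sham saline. Hopx, a homeodomain regulator needed for conduction in mice, fell in both, by 0.57 ± 0.13 on the log2 scale in TAC saline (adjusted p = 0.0056) and by 0.73 ± 0.13 in TAC NRG (adjusted p = 0.00036). Esrra, the oestrogen-related receptor alpha, fell in TAC saline by 0.30 ± 0.10 (adjusted p = 0.0496), a call kept in 11 of 27 alternatives and lost without any of TAC NRG 1 and 2, TAC saline 2, 4 and 5 or sham 1, 2, 4 and 5, and gave -0.13 ± 0.10 in TAC NRG (adjusted p = 0.430). Prox1, Mef2a and Mef2d fell in TAC NRG relative to sham saline by 0.71, 0.33 and 0.29. The calls for Mef2a and Mef2d were lost with total reads as the scaling and with voom weights, that for Mef2a also without sham 3, and that for Prox1 with voom weights and without TAC NRG 4 and 5. In TAC NRG over TAC saline 0 of the 23 passed, with 2 at an unadjusted p under 0.05. Relative to sham saline, 8 of the 23 in TAC saline and 7 in TAC NRG had such a p, against 24.2% and 28.9% of all genes. Tbx3, Tbx5, Irx3 and Nkx2-5 were among the factors that passed in no comparison.

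Between libraries, Hcn2 and Scn4b varied together. Their Pearson r of log2 levels over 15 libraries was 0.86 (Spearman rho 0.71), and 0.86 with group means removed. Without the 2 libraries farthest from the median of Hcn2, sham saline 2 and TAC NRG 3, it was 0.61. With group means removed and the 2 libraries then farthest left out, TAC NRG 3 and sham saline 3, it was 0.81. It was the only one of the 21 pairs of members above 0.6 with group means removed, the next being Gja5 with Cacna2d1 at 0.57. Hcn2 and Hcn4, although both pacemaker channels, had r = 0.35, and -0.15 with group means removed. These values are descriptions over the same 15 libraries, and no test was made of them. Read depth had r = 0.15 with Hcn2 and 0.10 with Scn4b, and the mitochondrial share 0.75 and 0.63.

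**Figure D4:**
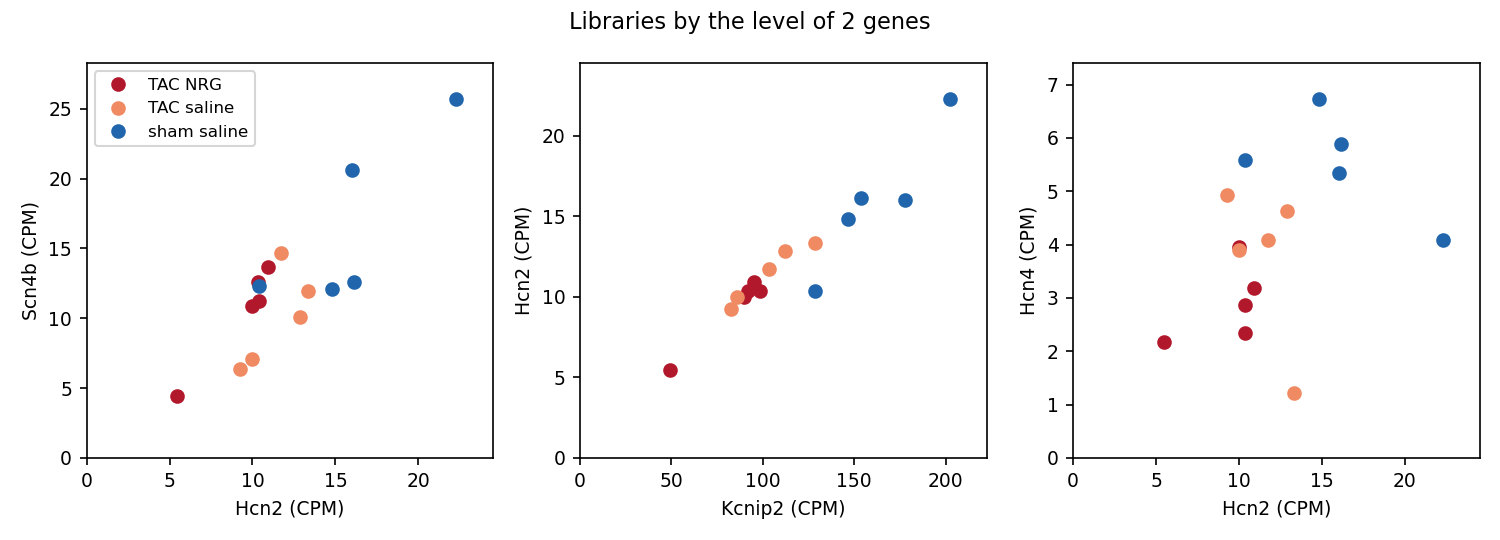
Libraries by level in CPM (linear axes from 0) of Scn4b against Hcn2, Hcn2 against Kcnip2, and Hcn4 against Hcn2, coloured by group. TAC NRG 3 is lowest and sham saline 2 highest on both axes in the left and middle panels, where r of log2 levels is 0.86 and 0.96, while Hcn4 has no such order along Hcn2 (r = 0.35).

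Among 9279 other genes with a mean of at least 5 CPM, those most like Hcn2 over the 15 libraries were Kcnip2 (r = 0.96), Ckm (0.94) and Ipo13 (0.93). Kcnip2, which encodes the accessory subunit KChIP2 of the transient outward potassium current, had 95.2, 98.4, 49.3, 89.9 and 91.7 CPM in TAC NRG libraries 1 to 5. It had 85.7, 112, 129, 103 and 82.6 CPM in TAC saline libraries 1 to 5, and 154, 202, 128, 178 and 146 CPM in sham saline libraries 1 to 5. With group means removed its r with Hcn2 was 0.95. TAC NRG 3 was lowest and sham saline 2 highest for both genes, and sham 3 was the lowest sham library for both. Kcnip2 fell in TAC NRG relative to sham saline by 0.95 ± 0.16 on the log2 scale (limma adjusted p = 0.00014) and in TAC saline relative to sham saline by 0.66 ± 0.16 (adjusted p = 0.0076), calls kept in all 27 alternatives. It was picked for its likeness to Hcn2 in these libraries, so its direction is not independent of Hcn2. The genes most like Scn4b were Pnpla2, the main triglyceride lipase (r = 0.90), the acyl-CoA thioesterase gene Acot1 (0.89) and Retsat, a retinol saturase gene (0.89). For Cacnb2 they were Tgfbr3, Hdac4 and Ppil1 (0.87, 0.85 and 0.85), and for Cacna2d1 Usp54, Ralgapa1 and Dyrk1a (0.87, 0.87 and 0.85). For Gja5 they were Inip, Gtf2h2 and Hdac6 (0.84, 0.83 and 0.78), for Hcn4 Khdc4, Rabep1 and Adam22 (0.82, 0.82 and 0.79), and for Gja1 Herc3, Hspbp1 and Rab20 (0.77, 0.77 and 0.76).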

How the data were processed

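RNA of frozen left ventricles was isolated with Tri Reagent for BRB-seq, per the labels' protocols. The authors deposited log2 values. Their spacing shows 0.5 read added, then a scaling factor for each library; undoing both gave values within 0.05 of a whole read for 98.9% to 99.5% of genes in a library. The genome build was GRCm39, per the submitters' processing notes. How reads were aligned, counted and assigned to strands is not given in the sources used here, so overlapping or antisense genes cannot be told apart.

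A gene was tested if 5 or more libraries held 2.95 reads per M (10 in the library of median depth) and all libraries together held 15. This kept 11018 genes, with all 7 members, and left out 4240. The test was limma 3.58.1 (R 4.3.3) on the log2 values of all 15 libraries, with a mean-spread trend, two-sided, with Benjamini-Hochberg adjustment over all genes tested and a threshold of 0.05. Single members were also compared by exact permutation. The limma script was checked on simulated data with known changes. Libraries of a group differed beyond counting noise (chi-square over degrees of freedom 2.27 to 12.1), so none repeated the reads of another library. This check cannot tell whether libraries came from the same mouse. Promoters came from RefSeq (GRCm38.p6), with all 7 members matched. Tables and figures used Python 3.11.15, numpy 2.4.6, pandas 2.3.3, matplotlib 3.10.9 and scipy 1.17.1.

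The members and gene lists were chosen with earlier results of these data known. Named genes are the 7 members, the pore Cacna1c, up to 4 called genes per list and comparison, and the 3 genes most like each member. Some genes picked by this rule are not reported here. Esrra where it was not called, Hey1, and marker genes beyond 4 a list were named after their values were seen. Alternatives covered scaling, test, added reads, filter, spread, groups, replicate block, depth and left-out libraries.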

Additional observations from a re-analysis of the deposited data

Results flagged for a closer look

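Among 30 groups of 5 libraries examined (21 of them levels of the 7 genes), 2 held a library far from the other 4, and chance gives about 1 in 20. Hcn2 in TAC NRG library 3 was 5.48 CPM, below the 9.98 to 10.9 CPM of the other TAC NRG libraries, with a gap of 0.828 of the group's range against a limit of 0.71. Hcn4 in TAC saline library 3 was 1.21 CPM, from 3 reads, below the 3.90 to 4.93 CPM of the other TAC saline libraries, with a gap of 0.724 of the range.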

How the results depend on the processing

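With total reads as the scaling, all tested genes had a median of 0.10 (log2) for TAC saline over sham saline, against -0.01 with the authors' scaling, and of 0.11 with voom weights and 0.035 with non-mitochondrial reads. Gja1 and Cacna2d1 lay below that median with total reads, voom weights and non-mitochondrial reads. With thinned reads the median was -0.0084, and Gja1 lay above it. For the 7 genes, 564 alternative values gave 524 with the same direction and side of the threshold, 13 with the other sign, 11 newly past the threshold and 16 no longer past it. All 13 belonged to differences that did not pass. Gja1 in TAC saline over sham saline became 0.076 with total reads, 0.0065 with non-mitochondrial reads, 0.077 with voom weights and 0.013 with thinned reads. Cacna2d1 in the same comparison became 0.0065 with total reads and 0.016 with voom weights. Scn4b in TAC NRG over TAC saline became -0.0064 with non-mitochondrial reads, -0.063 without TAC NRG 4 and 5, and ran from -0.0995 (without TAC saline 5) to 0.33 (without TAC NRG 3) on leaving out single libraries, below 0 also without TAC NRG 1 (-0.070), TAC saline 1 (-0.061) or TAC NRG 2 (-0.041). Cacnb2 in that comparison ran from -0.012 (without TAC saline 1) to 0.13 (without TAC saline 2). Leaving out single libraries gave 636 (without TAC saline 5) to 1495 called genes for TAC saline over sham saline, against 1180, with 708 without TAC saline 1. For TAC NRG over TAC saline the range was 58 (without TAC NRG 4) to 229 (without TAC NRG 2), against 143, with 92 under voom weights, 77 with only those groups in the fit and 39 without TAC NRG 4 and 5. Of the 7 genes, leaving out libraries called 0 to 1, 0 to 1 and 1 to 3 in the comparisons TAC saline over sham saline, TAC NRG over TAC saline and TAC NRG over sham saline. The only-2-groups fit called 1 (Scn4b) in the first. Non-mitochondrial scaling, no filter and thinned reads each called 1 (Hcn2) in the last. The cause of these changes was not tested. Hcn4 had no value under the doubled filter. For the other named genes, 1806 alternative values gave 0 of the other sign, 190 no longer past the threshold and 4 newly past it.

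No strong pairing of libraries by replicate number was seen. Same-numbered libraries had correlations of -0.246 to 0.0795, with 0 of 15 pairs over 0.1, and 2 libraries correlated best with their own number. Pairs with different numbers had correlations of -0.100 to 0.194. A weak pairing could go unseen by this check. With the replicate block, 1049, 111 and 1645 genes and 0, 0 and 2 of the 7 were called in the same order, with Hcn2 and Hcn4 (adjusted p = 0.0472) in place of Hcn2 and Gja1 (adjusted p = 0.0748). Counts of 3 to 26 reads limit Hcn4, and of 5 to 51 reads Gja5.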
